A study of Sus scrofa with 18 samples.

Results

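TNFAIP1, COMMD7, PLA2G7 and PRTFDC1 are 4 genes of the pig endometrium that were chosen because their day-to-day courses differed between Yorkshire and Meishan gilts. A search of the gene symbols of the platform found 3 of these 4 genes, out of 6765 genes with a symbol there, on 4 of the 24123 probe sets of the array: 1 probe set for TNFAIP1, 1 for PLA2G7 and 2 for COMMD7, whose identifiers end in _a_at (COMMD7 a) and _at (COMMD7 b). No probe set carries PRTFDC1 as its platform symbol, and 1 further probe set is followed under that name because the study's own gene list names it so, which makes 5. The courses themselves made the choice, so the levels on each day and the steps between days are given as descriptions, without a test. All 5 probe sets were among the 9320 with an intensity above 100 on at least 6 arrays, controls left out.

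The samples were endometrium of Yorkshire gilts on gestational days 15, 26 and 50 (GD15, GD26 and GD50) and of Meishan gilts on the same days, with 3 arrays for each of the 6 groups and 18 in all. Each gilt had been mated to a boar of its own breed. As far as the sources tell, no sample was treated, and the groups were defined by breed and day. The way pregnancy was established also differed between the days. On GD15 a normal conceptus was sought in the uterine flushing, and on GD26 and GD50 at hysterectomy. Whether this affected the values was not tested. Each array measured RNA pooled from 1 conceptus attachment site of each of the same 2 gilts, so the 3 arrays of a group are 3 pairs of sites of 1 pair of gilts. Errors and p-values therefore cover differences between pooled sites, and the variation from gilt to gilt is outside them. Values are log2 intensities per probe set as deposited (background-corrected and normalized with GCRMA), and a level can be compared between arrays but not between probe sets.

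The genes belong to separate pathways. TNFAIP1, first found as a gene induced by tumour necrosis factor, encodes an adaptor that brings substrates to the CUL3 ubiquitin ligase, which marks them for breakdown. COMMD7 is one of the COMMD proteins, which join the Commander complex for endosomal sorting and have been described as inhibitors of NF-kappaB, the transcription factor of inflammatory signalling. PLA2G7 is a secreted phospholipase, made largely by macrophages, that inactivates platelet-activating factor (PAF), a lipid mediator of inflammation. PRTFDC1 is a homologue of the purine salvage enzyme HPRT1, with little enzyme activity of its own in human.

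The arrays did not all stand alike. On the 6 arrays that hold Yorkshire tissue of the later days, GD26 and GD50, the median log2 intensity over the 9320 probe sets was 7.78 to 8.13, against 8.31 to 8.40 on the other 12. The probe sets for spiked bacterial RNA, which report on hybridization, were brighter on those 6 arrays (11.45 to 13.50) than on the other 12 (9.68 to 11.14). Each member is therefore given as deposited and after centring each array on its median. Centring moved the median over all 9320 probe sets of the Yorkshire minus Meishan difference by 0.26 for the average of the 3 days, by 0.35 for the GD26 minus GD15 step and by 0.06 for the GD50 minus GD26 step. The endometrial secretory genes SPP1, ACP5 and UPTI exceeded an intensity of 100 on all 18 arrays, whereas the steroid receptors ESR1 and PGR were under 100 on all 18. Each is read from the brightest probe set with its platform symbol. The study counts ESR1 among the genes with high expression on GD15 in both breeds, which the probe set read here did not show. The reason was not tested. Another secretory gene, SAL1, exceeded 100 on the 6 arrays of GD15 alone. The summed intensity of 10 trophoblast markers was 464 to 501 on the Yorkshire and 519 to 596 on the Meishan arrays of GD15. On GD26 it was 74250 to 89690 in Yorkshire and 41180 to 75370 in Meishan, and on GD50 it was 46830 to 66160 in Yorkshire and 71260 to 88780 in Meishan, with 7 of the 10 markers above 100 on every array of these days, 2 on GD15 and TFAP2C on none of the 18 arrays. Their part in the values of the 4 genes was not tested. In whole tissue, fewer cells of a type and less RNA per cell cannot be told apart.

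**Figure D1:**
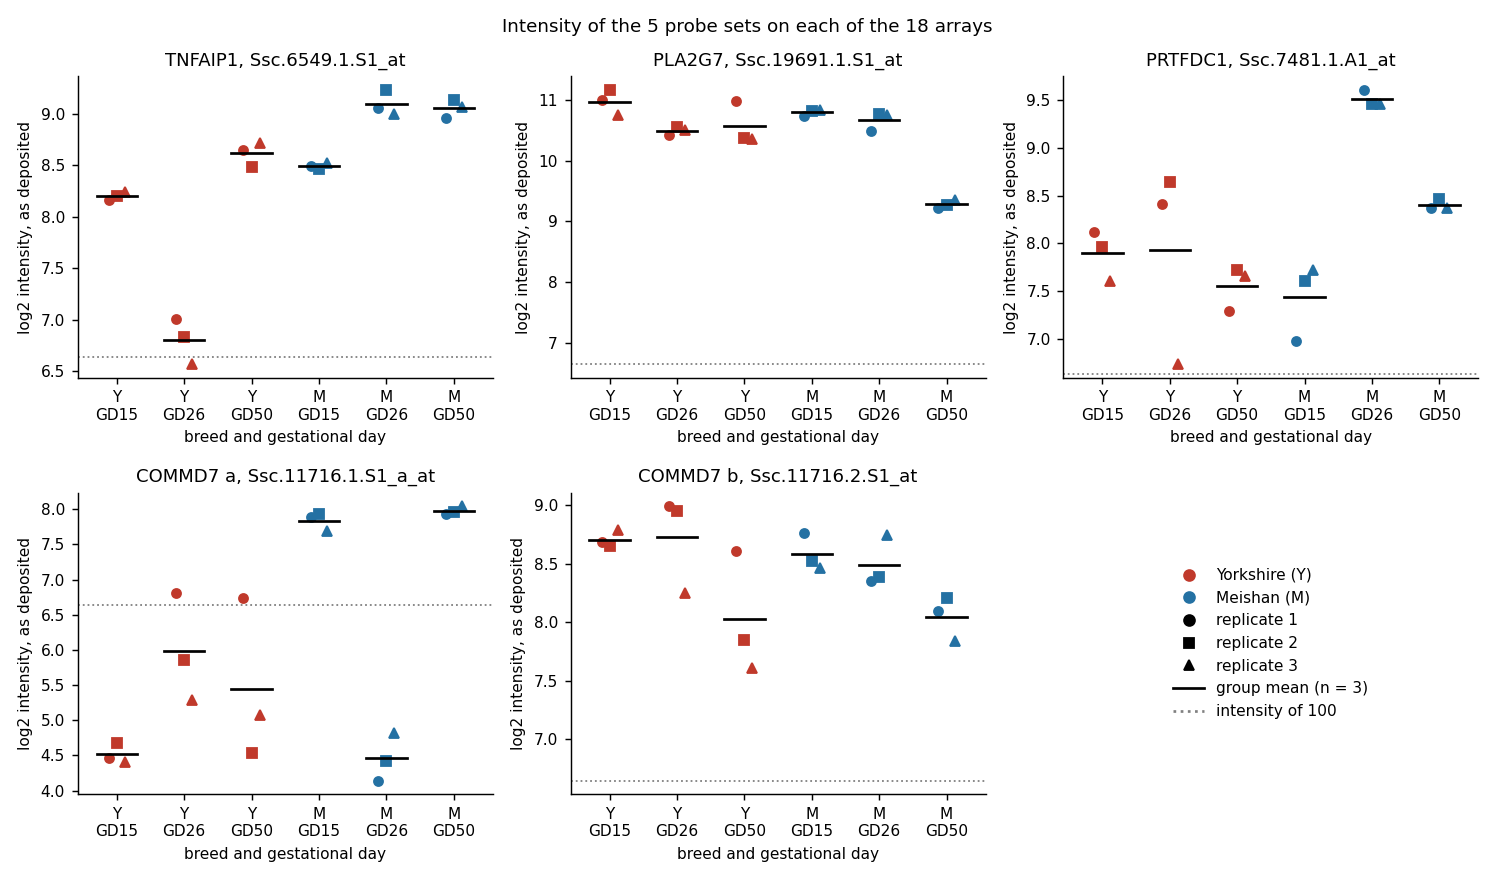
Log2 intensity as deposited (vertical axis) of the 5 probe sets on each of the 18 arrays, by breed and gestational day (Y, Yorkshire, red; M, Meishan, blue), with a symbol for each replicate, a black bar for the group mean and a dotted line at an intensity of 100. TNFAIP1 is lowest on the Yorkshire arrays of GD26, PLA2G7 on the Meishan arrays of GD50, PRTFDC1 is highest on the Meishan arrays of GD26, and COMMD7 a lies under the dotted line on 10 of the 18 arrays.

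TNFAIP1 was low in Yorkshire endometrium on GD26 and on no other day. It was above 100 on 17 of the 18 arrays. It read 8.17, 8.20 and 8.24 on the Yorkshire arrays of GD15, 7.00, 6.83 and 6.57 on those of GD26, and 8.65, 8.49 and 8.72 on those of GD50. In Meishan it read 8.49, 8.46 and 8.52 on GD15, 9.06, 9.23 and 9.00 on GD26, and 8.96, 9.14 and 9.06 on GD50. The 3 Yorkshire arrays of GD26 lay below the other 15 arrays, a placement that 4.29% of the 9320 probe sets showed as deposited and 3.34% after centring. As the gene was chosen for its course, nothing is read from these shares.

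The GD26 minus GD15 difference of TNFAIP1 was −1.40 ± 0.13 in Yorkshire and 0.60 ± 0.07 in Meishan (log2, standard error, n = 3 arrays per group here and below). The arrays of the 2 days did not overlap in either breed, and the directions were opposite: every Yorkshire array of GD26 was below every one of GD15, and every Meishan array of GD26 was above. The GD50 minus GD26 difference was 1.82 ± 0.14 in Yorkshire and −0.04 ± 0.09 in Meishan, where the arrays of both days overlapped. After centring these differences were −1.01 and 1.89 in Yorkshire and 0.64 and −0.04 in Meishan. Over the whole interval TNFAIP1 was higher on GD50 than on GD15 in both breeds, by 0.42 ± 0.07 in Yorkshire and 0.56 ± 0.06 in Meishan.

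Between the breeds, TNFAIP1 differed by −0.29 ± 0.03 on GD15, by −2.30 ± 0.14 on GD26, which is 4.91-fold lower in Yorkshire, and by −0.43 ± 0.09 on GD50 (Yorkshire minus Meishan). The day 26 difference was −1.94 after centring, a 3.84-fold difference. On GD50 the breed difference was only as large as the scaling: after centring it was −0.02 ± 0.08, with overlapping arrays, and after cyclic loess it was 0.08 ± 0.07. As deposited the levels ran, from low to high, Yorkshire GD26, Yorkshire GD15, Meishan GD15, Yorkshire GD50, Meishan GD50 and Meishan GD26. The last pair overlapped, as did the Yorkshire GD50 and Meishan GD15 arrays. After centring the Yorkshire GD50 arrays (8.84 to 9.01) overlapped with those of Meishan GD50 (8.84 to 9.03) and lay above those of Meishan GD15 (8.28 to 8.39).

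COMMD7 a was low in Meishan on GD26 and above an intensity of 100 there on the other days, while most Yorkshire arrays were under 100 throughout. Only 8 of the 18 arrays were above 100. It read 4.47, 4.68 and 4.40 on the Yorkshire arrays of GD15, 6.81, 5.86 and 5.29 on GD26, and 6.73, 4.53 and 5.08 on GD50. On the Meishan arrays it read 7.89, 7.94 and 7.69 on GD15, 4.14, 4.43 and 4.82 on GD26, and 7.94, 7.96 and 8.04 on GD50. All 6 Meishan arrays of GD15 and GD50 exceeded 100 (6.64 on the log2 scale), and all 3 of GD26 were below it. Of the 9 Yorkshire arrays, 2 exceeded it, the first replicate of GD26 and that of GD50.

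In Meishan, COMMD7 a was at least 2.29-fold lower on GD26 than on GD15, and at least 2.52-fold higher on GD50 than on GD26 (with 100 in place of the GD26 arrays). The fitted log2 values were −3.38 ± 0.21 and 3.52 ± 0.20, and they depend on how low intensities were modelled upstream. In Yorkshire the GD26 minus GD15 difference was 1.47 ± 0.45 as deposited and 1.87 ± 0.37 after centring, with no overlap between the days. With intensities under 100 set to 100 it was 0.06 ± 0.06 and the days overlapped, so the Yorkshire direction rests on values under 100. The Yorkshire GD50 minus GD26 difference was −0.54 ± 0.80, with −1.18 without the first and −0.08 without the second replicate of GD50. Probe sets with no overlap between GD15 and GD26 in either breed and these opposite directions (Yorkshire higher, Meishan lower) were 1.02% of the 9320 as deposited and 1.79% after centring, and 3.21% and 1.63% had the directions seen for TNFAIP1. The gene was chosen on these values, and nothing is read from the shares.

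On GD15 COMMD7 a was at least 2.29-fold lower in Yorkshire than in Meishan. On GD50 the log2 difference was −2.53 ± 0.66, with 1 of the 3 Yorkshire arrays above 100, and −1.31 ± 0.04 with intensities under 100 set to 100. On GD26 Yorkshire was 1.53 ± 0.49 higher as deposited, but only 1 of the 6 arrays of that day was above 100. With the others set to 100 the difference was 0.06 ± 0.06 and the breeds overlapped, so no order of the breeds is read on GD26. The Meishan GD26 and all 3 Yorkshire groups lay at or near the limit of 100 or below it, and their order is not read. The Meishan arrays of GD15 and GD50 stood above them all.

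COMMD7 b, the other probe set of the same gene, did not show this course. It was above 100 on all 18 arrays. It read 8.68, 8.65 and 8.79 on the Yorkshire arrays of GD15, 8.99, 8.96 and 8.25 on GD26, and 8.61, 7.85 and 7.61 on GD50. In Meishan it read 8.76, 8.53 and 8.46 on GD15, 8.35, 8.38 and 8.74 on GD26, and 8.10, 8.20 and 7.84 on GD50. The breeds overlapped on every day, with Yorkshire minus Meishan differences of 0.12 ± 0.10 on GD15, 0.24 ± 0.27 on GD26 and −0.02 ± 0.32 on GD50. After cyclic loess the difference on GD26 was 0.70 ± 0.22, and the arrays of that day no longer overlapped. Both breeds were lower on GD50 than on GD15, by −0.68 ± 0.30 in Yorkshire and −0.54 ± 0.14 in Meishan. After centring the Yorkshire difference was −0.22 ± 0.26, with overlapping arrays, and the Meishan one −0.49 ± 0.16.

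Over the 18 arrays the 2 COMMD7 probe sets correlated at r = −0.06 as deposited and −0.15 after centring. Within the 9 Yorkshire arrays r was 0.37 (0.53 after centring), and within the 9 Meishan arrays −0.29 (−0.32). These arrays share breed, day and gilts, and the values are descriptions. In the naming of this array type, the ending _a_at marks a probe set that can match several transcripts of a gene. Which COMMD7 transcripts each probe set reads was not tested.

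**Figure D2:**
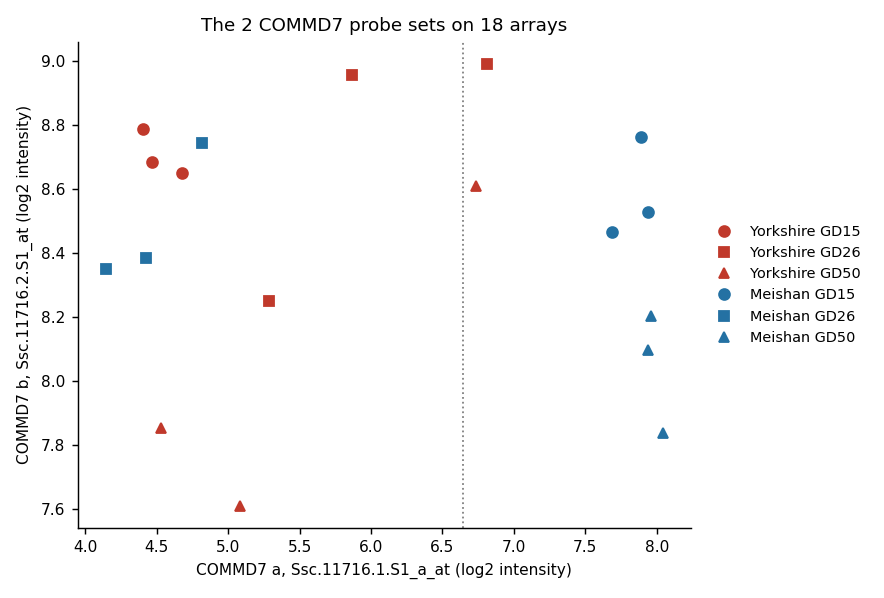
Log2 intensity as deposited of COMMD7 a (horizontal axis) against COMMD7 b (vertical axis) on the 18 arrays, with Yorkshire in red, Meishan in blue, a symbol for each gestational day and a dotted line at an intensity of 100. COMMD7 a separates the Meishan arrays of GD26 (4.14 to 4.82) from those of GD15 and GD50 (7.69 to 8.04), and on COMMD7 b the Meishan arrays of GD26 (8.35 to 8.74) lie within the range of the others.

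PLA2G7 overlapped between the breeds on GD15 and GD26 and was lower in Meishan on GD50. On Yorkshire arrays it read 11.01, 11.17 and 10.76 on GD15, 10.42, 10.56 and 10.51 on GD26, and 10.98, 10.37 and 10.37 on GD50. On Meishan arrays it read 10.74, 10.83 and 10.84 on GD15, 10.50, 10.77 and 10.77 on GD26, and 9.22, 9.27 and 9.36 on GD50. The 3 Meishan arrays of GD50 lay below the other 15, as 1.12% of the 9320 probe sets did as deposited and 2.35% after centring, values that also belong to the choice of the gene.

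The GD50 minus GD26 difference of PLA2G7 was 0.08 ± 0.21 in Yorkshire and −1.40 ± 0.10 in Meishan, a 2.63-fold lower level in Meishan on GD50. The earlier step depended on the scaling in Yorkshire, where it was −0.48 ± 0.13 as deposited and −0.09 ± 0.16 after centring. In Meishan that step was −0.13 ± 0.10 as deposited and −0.09 ± 0.08 after centring. The breed difference was 0.18 ± 0.12 on GD15 and −0.18 ± 0.10 on GD26, with overlapping arrays on both days, and the GD26 value was 0.17 ± 0.14 after centring. On GD50 it was 1.29 ± 0.21, which is 2.45-fold higher in Yorkshire, and after centring it was 1.71 ± 0.16, or 3.27-fold. Of the Yorkshire arrays of GD50, the first replicate stood above the other 2, and without it the Yorkshire step was −0.13. In order of level as deposited, the Meishan GD50 arrays stood alone, and the other 5 groups (Yorkshire GD26, Yorkshire GD50, Meishan GD26, Meishan GD15 and Yorkshire GD15) each overlapped with the next.

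Macrophages are a known source of PLA2G7, and 9 macrophage markers were measured. Their summed intensity was 3785 to 5636 in Yorkshire and 1474 to 4855 in Meishan on GD15, and 4140 to 5035 in Yorkshire and 5727 to 6199 in Meishan on GD26. On GD50, where PLA2G7 was lower in Meishan, the sum was 5267 to 6626 in Yorkshire and 6966 to 7535 in Meishan. The sum is as deposited and is made up mostly of the bright C1QC and AIF1, and single markers differed. On GD50 C1QA averaged 9.55 in Yorkshire and 6.79 in Meishan (log2), the order of PLA2G7, with the Meishan value near an intensity of 100. AIF1 averaged 10.10 in Yorkshire and 11.39 in Meishan, the other order. That order was also seen for CD163 (7.56 and 8.16) and FCER1G (6.34 and 7.77). C1QC averaged 11.59 in Yorkshire and 11.64 in Meishan, and TYROBP 8.72 and 8.76. Of the 9 markers, 5 exceeded 100 on all 3 arrays of each breed on that day. The macrophage transcription factor SPI1 was under 100 on all 18 arrays, CD14 and MRC1 were above it on 1 array each and the scavenger receptor CD163 on 13. The part of macrophages in the PLA2G7 values was not tested.

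PRTFDC1 was highest in Meishan on GD26. It read 8.12, 7.96 and 7.61 on the Yorkshire arrays of GD15, 8.41, 8.65 and 6.74 on GD26, and 7.29, 7.72 and 7.66 on GD50. On the Meishan arrays it read 6.98, 7.61 and 7.73 on GD15, 9.60, 9.45 and 9.46 on GD26, and 8.37, 8.46 and 8.37 on GD50. The 3 Meishan arrays of GD26 were above the other 15, as 3.99% of the probe sets were as deposited and 2.51% after centring, by the choice of the gene.

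In Yorkshire the 3 days overlapped. The GD26 minus GD15 difference of PRTFDC1 was 0.04 ± 0.62 in Yorkshire and 2.06 ± 0.24 in Meishan, where GD26 was 4.18-fold higher. The GD50 minus GD26 difference was −0.38 ± 0.61 in Yorkshire and −1.10 ± 0.06 in Meishan. The wide error in Yorkshire came from 1 array: without the third replicate of GD26 the first step was 0.63 and the second −0.97, and the first step was −0.32 without the second replicate instead. The breed difference was 0.46 ± 0.28 on GD15, with overlap, −1.57 ± 0.60 on GD26 and −0.85 ± 0.14 on GD50, and on these 2 days every Yorkshire array was below every Meishan array. Without the third Yorkshire replicate the GD26 difference was −0.98, and without the first Meishan replicate the GD15 difference was 0.23. After centring the GD26 and GD50 differences were −1.22 ± 0.56 and −0.43 ± 0.20, still without overlap, and on GD50 the arrays overlapped after cyclic loess. In order of level as deposited, Meishan GD15, Yorkshire GD50, Yorkshire GD15, Yorkshire GD26 and Meishan GD50 each overlapped with the next, and only the Meishan GD26 arrays stood apart.

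**Figure D3:**
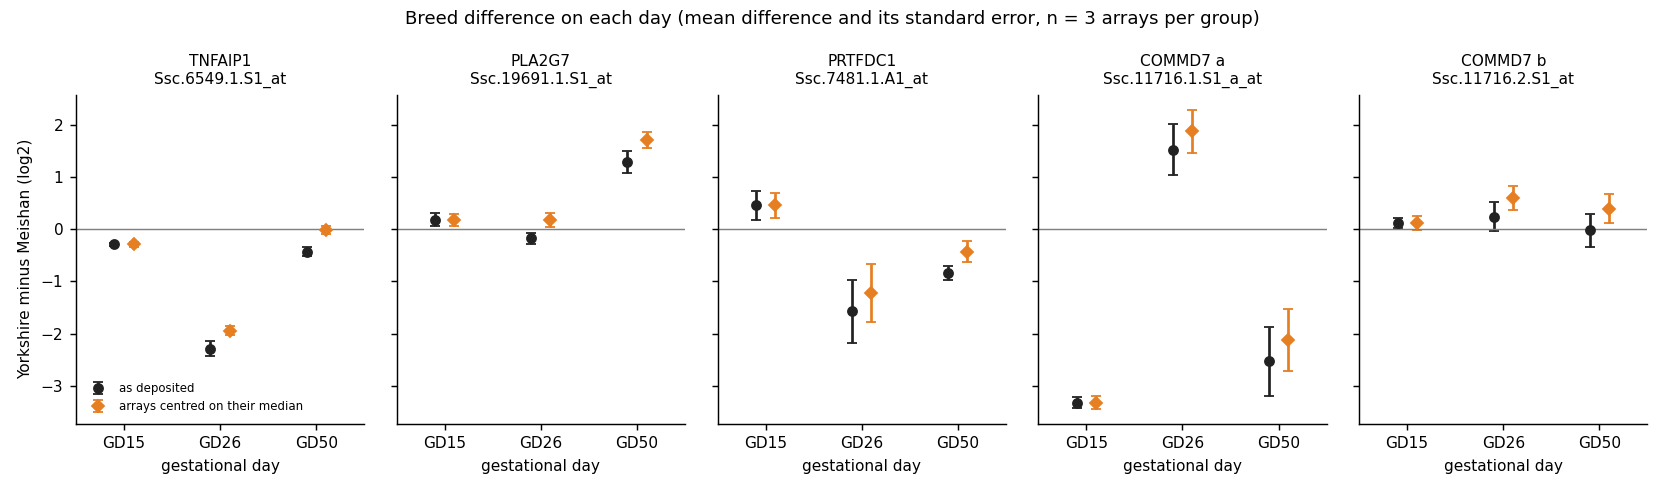
Yorkshire minus Meishan difference in log2 intensity (vertical axis) of each probe set on each gestational day, as deposited (black) and after centring each array on its median (orange), with bars for the standard error from 3 arrays per group. TNFAIP1 departs from 0 mainly on GD26 (−2.30) and PLA2G7 on GD50 (1.29), and COMMD7 b stays within 0.24 of 0 as deposited. COMMD7 a is plotted at −3.32, 1.53 and −2.53 as deposited, on values that were mostly under an intensity of 100 in Yorkshire. On GD26 all Meishan arrays were under 100 too. With intensities under 100 set to 100 that day's difference was 0.06, and no order of the breeds is read there.

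The breed difference in each step (Yorkshire step minus Meishan step) was set against all 9320 probe sets, with the percentage smaller in size in brackets. In the GD26 minus GD15 step it was, as deposited, −2.03 for PRTFDC1 (94.1%), −2.01 for TNFAIP1 (94.0%), −0.35 for PLA2G7 (29.2%) and 0.12 for COMMD7 b (9.86%). After centring it was −1.67 for PRTFDC1 (91.3%), −1.65 for TNFAIP1 (91.1%), −0.001 for PLA2G7 (0.161%) and 0.47 for COMMD7 b (46.9%). In the GD50 minus GD26 step it was, as deposited, 1.86 for TNFAIP1 (98.3%), 1.47 for PLA2G7 (96.3%), 0.73 for PRTFDC1 (79.9%) and −0.26 for COMMD7 b (40.3%). The percentages after centring were 98.5%, 96.7%, 82.8% and 31.5%, in the same order. For COMMD7 a the deposited values gave 4.85 in the first step and −4.06 in the second, and with intensities under 100 set to 100 these were 1.25 and −1.36, smaller in size than the −1.98 and 1.84 of TNFAIP1 on that footing. No rank is given for it. TNFAIP1 thus differed between the breeds in both steps, PRTFDC1 mainly in the first and PLA2G7 in the second. These ranks follow from the choice of the genes and are descriptions.

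The difference between the breeds averaged over the 3 days is built from the same day values that chose the genes, so it too is given as a description, with limma standard errors and no p. TNFAIP1 averaged 7.88 in Yorkshire and 8.88 in Meishan, a difference of −1.01 ± 0.08 (−0.75 ± 0.07 after centring). COMMD7 a averaged 5.32 in Yorkshire and 6.76 in Meishan, a difference of −1.44 ± 0.25 that depended on the processing: it was −1.19 ± 0.22 after centring, −0.93 ± 0.22 after cyclic loess, −0.62 ± 0.19 after quantile normalization and −0.82 ± 0.06 with intensities under 100 set to 100. PLA2G7 averaged 10.68 in Yorkshire and 10.25 in Meishan, a difference of 0.43 ± 0.10 (0.69 ± 0.09 after centring). PRTFDC1 averaged 7.80 in Yorkshire and 8.45 in Meishan, a difference of −0.65 ± 0.20 (−0.40 ± 0.19 after centring). COMMD7 b averaged 8.49 in Yorkshire and 8.38 in Meishan, a difference of 0.11 ± 0.14 (0.37 ± 0.13 after centring).

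Breed differences of this kind were common on the array. As deposited, 63.0% of the 9320 probe sets passed the limma test for this average at an adjusted p under 0.05 (12.5% higher and 50.5% lower in Yorkshire), and after centring 50.5% did (23.1% higher and 27.4% lower). The average hides the days: for TNFAIP1 and PLA2G7 most of it came from 1 day, GD26 for TNFAIP1 and GD50 for PLA2G7, both measured on Yorkshire arrays that stood apart in their medians. On GD15, where the Yorkshire arrays did not stand apart, TNFAIP1 differed by −0.29 and PLA2G7 by 0.18 (log2).

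The 5 probe sets did not follow a common course. Their pairwise correlations over the 18 centred arrays ran from −0.72 (TNFAIP1 and COMMD7 b) to 0.61 (COMMD7 b and PLA2G7). The 3 probe sets most like each member were sought among 5242 others with 1 gene symbol, by Pearson's r over the 18 centred arrays, which share breed, day and gilts, and none reached 0.9. For TNFAIP1 they were PABPN1 (r = 0.89), a nuclear poly(A)-binding protein, DPH5 (0.89), an enzyme of diphthamide synthesis, and S100G (0.88), the calcium-binding protein calbindin-D9k. DPH5 averaged 6.94, 3.42 and 6.65 in Yorkshire and 7.79, 7.96 and 7.81 in Meishan on GD15, GD26 and GD50 (log2), with a low on GD26 in Yorkshire alone that lay far under an intensity of 100. S100G averaged 9.62, 8.62 and 11.19 in Yorkshire and 10.32, 11.06 and 12.25 in Meishan, so it was also higher on GD50 than on GD15 in both breeds.

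COMMD7 a was followed most closely by ATP2C1 (r = 0.82), a Golgi calcium pump, SKAP2 (0.78), a Src-associated adaptor, and PACSIN2 (0.77), a membrane-bending protein of endocytosis. ATP2C1 averaged 10.52, 10.61 and 10.84 in Yorkshire and 11.27, 10.71 and 11.63 in Meishan, with the GD26 low in Meishan at a high intensity, where COMMD7 a was under 100. COMMD7 b was most like SIAH2 (0.81), a ubiquitin ligase, the gene LOC100622859 (0.81) and IFT27 (0.78), a protein of ciliary transport. The member probe sets themselves were left out of this search, so it does not compare the COMMD7 probe sets with each other. For PLA2G7 they were SLC31A1 (0.87), the copper importer, SH3BP5 (0.87) and LOC100525692 (0.84). SLC31A1 averaged 12.35, 11.95 and 11.37 in Yorkshire and 12.22, 11.14 and 9.61 in Meishan, so its Meishan level was already lower on GD26, while PLA2G7 was lower on GD50 only. For PRTFDC1 they were FAM49B (0.84), PLAA (0.83) and PTGES3 (0.83), the HSP90 co-chaperone p23, which averaged 8.76, 8.64 and 8.19 in Yorkshire and 8.74, 9.63 and 9.19 in Meishan.

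**Figure D4:**
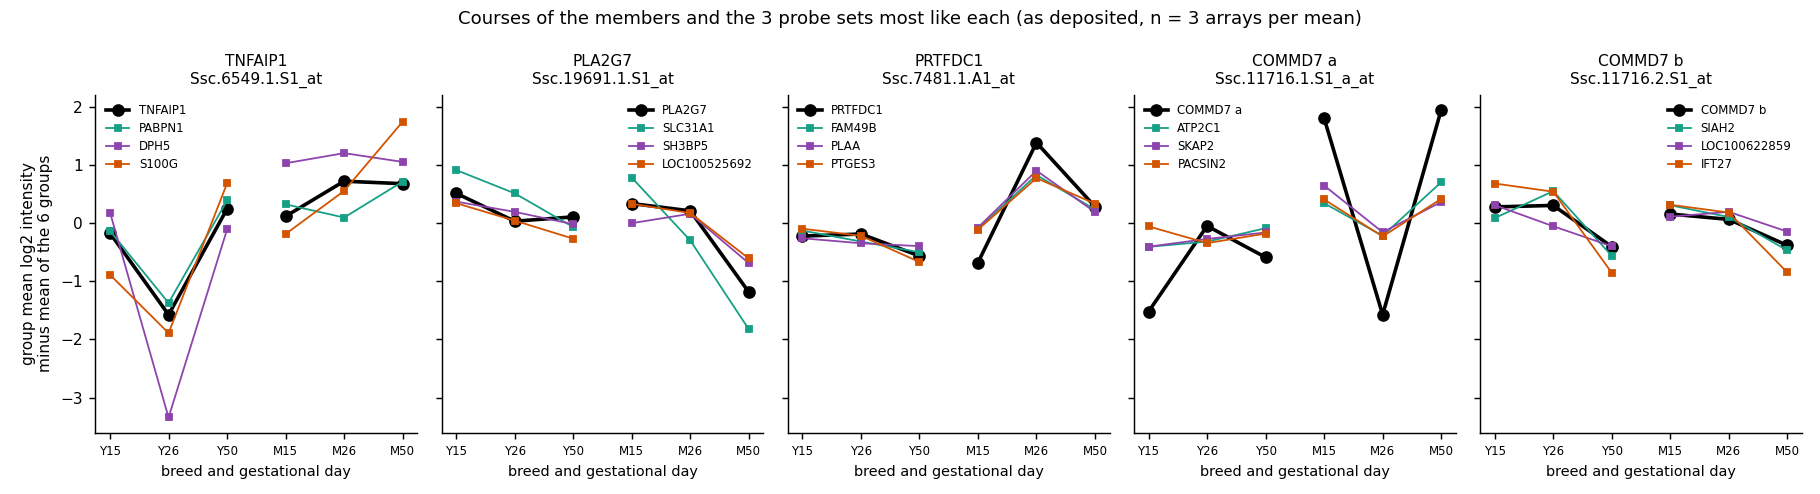
Group mean log2 intensity minus the mean of the 6 groups (vertical axis, as deposited) for each member probe set (black) and the 3 probe sets most like it by correlation (coloured), by breed and gestational day (Y, Yorkshire; M, Meishan; n = 3 arrays per mean). The genes like TNFAIP1 share the low level on GD26 in Yorkshire, DPH5 with 3.42 against 6.94 on GD15 and 6.65 on GD50, whereas those like COMMD7 a repeat the Meishan low on GD26 with smaller steps.

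In the gene order of the pig assembly Sscrofa11.1, POLDIP2, the next gene after TNFAIP1, was the only adjacent gene of a member with a probe set past the filter. It averaged 8.77, 9.74 and 9.30 in Yorkshire and 8.60, 9.44 and 9.23 in Meishan on GD15, GD26 and GD50, a course that was alike in the breeds, and correlated with TNFAIP1 at r = −0.22 over the 18 centred arrays. ASXL1 and MAPRE1, each the second gene from COMMD7, correlated with COMMD7 a at −0.11 and −0.27.

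The partners of each gene were followed in 5 lists, and for them the breed difference of each step was tested with limma over all 9320 probe sets. As deposited, 35.5% of the probe sets were called in the GD26 minus GD15 step (8.7% above and 26.8% below 0), and after centring 26.9% (13.8% above and 13.0% below). In the GD50 minus GD26 step 4.37% were called as deposited (2.05% above and 2.32% below) and 5.28% after centring (2.88% above and 2.4% below). The median difference over all 9320 was −0.41 as deposited and −0.06 after centring in the first of these steps, and −0.03 and 0.03 in the second. Of the first-step calls, 75.5% were below 0 as deposited and 48.6% after centring. Nothing is read from a sign that a list gene shares with a member.

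Among the partners of TNFAIP1 in the CUL3 ligase, 5 of 11 listed genes had a probe set and 4 passed the intensity filter. In the GD26 minus GD15 step 0 were called above and 1 below 0 (median −0.17), and after centring 1 above and 1 below. The gene above was UBE2M, the enzyme that attaches NEDD8 to cullins, at 0.48 ± 0.22 as deposited (adjusted p = 0.093) and 0.83 ± 0.22 after centring (adjusted p = 0.0115). PCNA, the DNA clamp that a relative of TNFAIP1 binds in human, averaged 8.13, 8.75 and 8.36 in Yorkshire and 8.26, 9.92 and 9.19 in Meishan on GD15, GD26 and GD50. It was the gene below 0 on both scales, with a breed difference of −1.03 ± 0.24 in the first step (adjusted p = 0.00396), the sign of that of TNFAIP1, and −0.68 after centring (adjusted p = 0.0177).

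In the GD50 minus GD26 step none of these genes was called as deposited. KCTD10, the closest relative of TNFAIP1 measured here, averaged 7.84, 8.19 and 9.13 in Yorkshire and 8.41, 9.01 and 9.22 in Meishan, without a called difference in either step (−0.26 ± 0.27 and 0.74 ± 0.27, adjusted p = 0.457 and 0.131). After centring the first of these was 0.09 and the second passed (0.80, adjusted p = 0.044). The other relative, KCTD13, had no match among the platform symbols.

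Of the COMMD family and the Commander complex, 11 of 18 listed genes other than COMMD7 had a probe set and 10 passed the filter. As deposited 4 were called below 0 in the first step and 0 above (median −0.55), and after centring 0 were called in either direction. The 4 were COMMD8 (−1.10 ± 0.31), COMMD4 (−1.09 ± 0.35), COMMD3 (−0.82 ± 0.19) and VPS29 (−0.71 ± 0.19), with adjusted p of 0.0121, 0.0229, 0.00447 and 0.00899. COMMD4 was not called without the second Meishan (adjusted p = 0.0578) or the third Yorkshire replicate of GD26 (adjusted p = 0.0541). COMMD3, for example, averaged 10.32, 9.29 and 9.68 in Yorkshire and 10.45, 10.24 and 10.48 in Meishan. The difference of COMMD7 a was of the opposite sign, 4.85, or 1.25 with intensities under 100 set to 100. In the second step 1 gene was called, CCDC93, a coiled-coil subunit of the complex, at 1.04 ± 0.22 (adjusted p = 0.0131), and it was called after centring too (1.10, adjusted p = 0.00682). It averaged 7.75, 6.88 and 8.74 in Yorkshire and 7.62, 7.15 and 7.97 in Meishan.

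Of 18 NF-kappaB core genes, 7 had a probe set and 4 passed the filter. NFKBIA, the inhibitor that NF-kappaB itself induces, averaged 9.48, 7.21 and 7.71 in Yorkshire and 9.11, 9.16 and 8.36 in Meishan. Its breed difference was −2.32 ± 0.33 in the first step (adjusted p = 1.2e-04) and 1.30 ± 0.33 in the second (adjusted p = 0.0367), the same signs as those of TNFAIP1, and both were called after centring. The courses were unlike in the second step, where NFKBIA fell in Meishan (9.16 to 8.36) and TNFAIP1 was level there. The call of the second step was lost in 9 of the 18 fits without 1 array, among them each Meishan array of GD26 and GD50 (adjusted p up to 0.0866). TNFRSF1B, a receptor of tumour necrosis factor, was called at −1.32 ± 0.45 in the first step (adjusted p = 0.0334) and was not after centring (adjusted p = 0.147) or in 7 of the 18 fits without 1 array. The other receptor, TNFRSF1A, was at −0.36 ± 0.26 (adjusted p = 0.284).

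Of the genes of PAF metabolism, 10 of 20 besides PLA2G7 had a probe set and 9 passed the filter. As deposited 1 was called above and 3 below 0 in the first step (median −0.59), and 1 above in the second. After centring 2 were called above and 2 below 0 in the first step, and 1 above in the second. CHPT1, a choline phosphotransferase of the last step of PAF synthesis, averaged 10.78, 9.98 and 11.23 in Yorkshire and 8.22, 10.15 and 9.24 in Meishan, so GD26 was its lowest day in Yorkshire and its highest in Meishan. Its breed difference was −2.73 ± 0.23 in the first step (adjusted p = 7.4e-07) and 2.16 ± 0.23 in the second (adjusted p = 5.13e-05). Both were called after centring, as was the −1.66 ± 0.45 of CEPT1, a phosphotransferase of choline and ethanolamine (adjusted p = 0.0105). CEPT1 exceeded an intensity of 100 on 13 arrays. Its Yorkshire means on GD26 (6.19, log2) and GD50 (5.92) were under 100, so its difference rests in part on such values. After cyclic loess the difference of CEPT1 was −1.18 (adjusted p = 0.0495). PLA2G12A, another secreted phospholipase, was at −0.93 ± 0.25 (adjusted p = 0.01) and was not called after centring.

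The intracellular PAF acetylhydrolases were measured too. PAFAH2 averaged 6.81, 6.53 and 6.85 in Yorkshire and 6.95, 5.86 and 6.29 in Meishan, with a breed difference of 0.81 ± 0.25 in the first step (adjusted p = 0.0181). It exceeded 100 on 9 of the 18 arrays, and with intensities under 100 set to 100 the difference was 0.19 (adjusted p = 0.448). PAFAH1B1 (−0.23 ± 0.23) and PAFAH1B2 (−0.59 ± 0.24) were not called in the first step (adjusted p = 0.451 and 0.0625), nor in the second, where they were at −0.05 and −0.23. None of these 3 was called in the GD50 minus GD26 step, the step in which PLA2G7 was lower in Meishan.

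Of the genes of purine salvage and synthesis, 17 of 29 besides PRTFDC1 had a probe set and 12 passed the filter. In the first step 5 were called below 0 and 0 above (median −0.53), 4 and 0 after centring, and in the second step none was called. HPRT1, the salvage enzyme that PRTFDC1 resembles, averaged 8.98, 8.23 and 8.09 in Yorkshire and 8.54, 9.11 and 8.60 in Meishan. Its breed difference in the first step was −1.31 ± 0.36 (adjusted p = 0.0105), of the same sign as that of PRTFDC1 (−2.03), and it was called after centring (−0.96, adjusted p = 0.0313) but not after cyclic loess (−0.87, adjusted p = 0.0508). In the second step it was 0.36 ± 0.36 (adjusted p = 0.623).

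ATIC, which makes the last steps of inosine monophosphate synthesis, was at −2.42 ± 0.38 (adjusted p = 2.61e-04). It averaged 8.56, 6.64 and 5.08 in Yorkshire and 7.49, 7.99 and 7.20 in Meishan. ATIC exceeded an intensity of 100 on 14 arrays, and its Yorkshire means on GD26 and GD50 were near or under 100. The size of its difference thus rests in part on such values. GMPS, the guanosine monophosphate synthetase, was at −1.18 ± 0.18 (adjusted p = 2.46e-04) and NT5C2, a purine nucleotidase, at −1.20 ± 0.22 (adjusted p = 7.66e-04). These 3 were called after centring. The fifth, PRPS2, which makes the ribose phosphate for purines, was at −0.73 (adjusted p = 0.00831) and lost its call after centring.

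**Figure D5:**
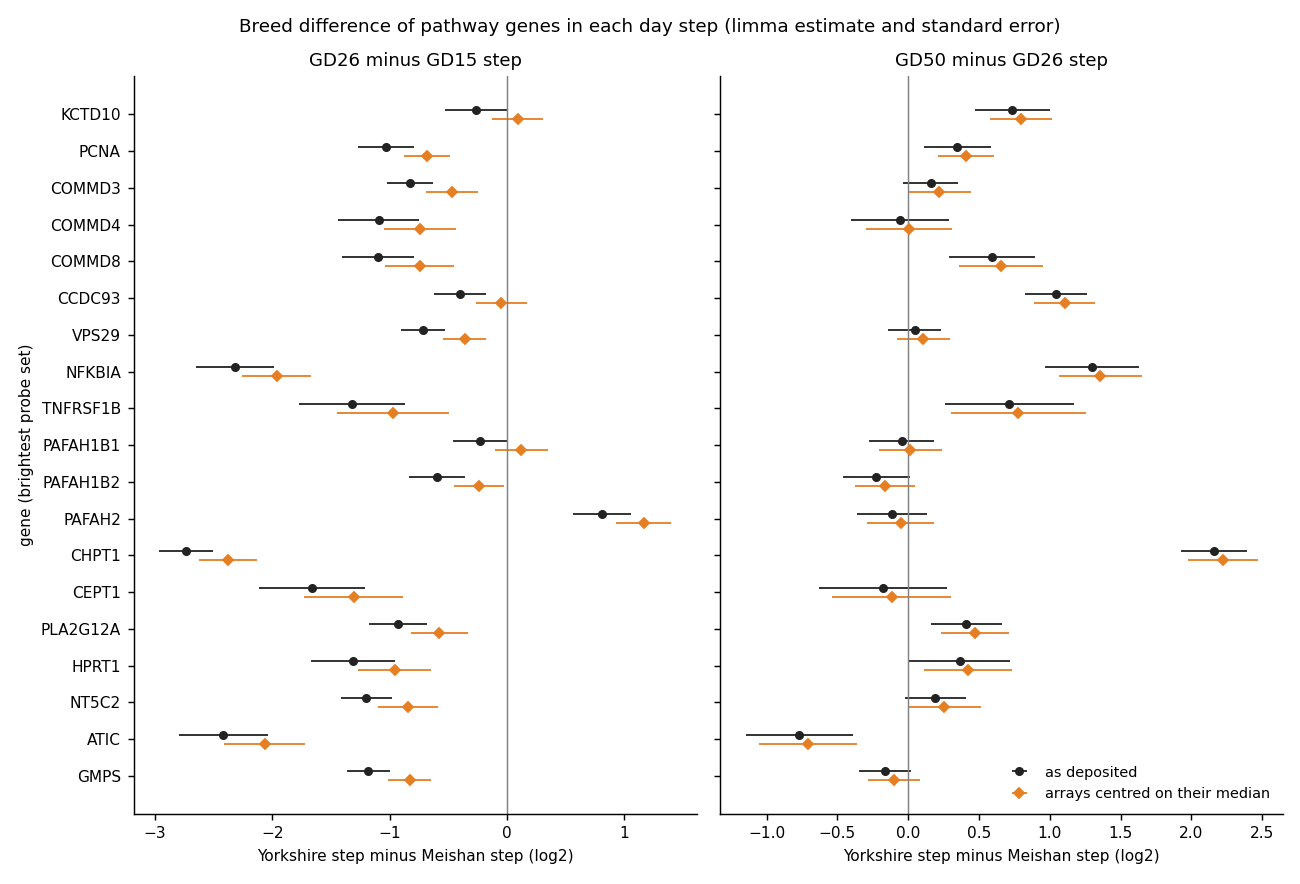
Yorkshire step minus Meishan step in log2 intensity (horizontal axis) of the named pathway genes, grouped by list from the CUL3 ligase genes at the top to the purine genes at the bottom, in the GD26 minus GD15 step (left) and the GD50 minus GD26 step (right), as deposited (black) and after centring each array on its median (orange), with limma standard errors. Centring moves every first-step value up by 0.35, which leaves NFKBIA (−2.32 as deposited), CHPT1 (−2.73) and ATIC (−2.42) far from 0. The Yorkshire means of ATIC on GD26 and GD50 were near or under an intensity of 100.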

How the data were processed

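RNA of 18 pools of endometrium was hybridized to the Affymetrix porcine array. The deposited values are log2 intensities that the authors computed with GCRMA in R (background correction, normalization and summarization). RMA is named too in the submitters' processing notes, without a version. The values cannot be set back to raw intensities here, so upstream choices were not varied. The file holds 24123 probe sets, of which 124 are controls, and 9320 others exceeded an intensity of 100 on at least 6 arrays, the filter of the study's methods, applied before the fit. Arrays carry no count depth, so only their number limits precision. Two-sided moderated tests came from limma 3.58.1, run under R 4.3.3 as 1 fit over the 6 groups, with Benjamini-Hochberg adjustment over the 9320 and a threshold of 0.05, and were tested on simulated data. "Called" means an adjusted p under 0.05.

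Symbols came from the platform annotation: 10099 probe sets have 1 symbol, 198 several and 13826 none, and PRTFDC1 was taken from the study's gene list. In the lists a gene is its brightest probe set. Some genes of the TNFAIP1 list are withheld and not reported here. Named genes are all member probe sets, the 3 most like each, up to 4 genes per list and step with the largest called difference, and HPRT1, KCTD10, KCTD13 and the PAF acetylhydrolases; PRPS2, UBE2M, POLDIP2, ASXL1, MAPRE1 and TNFRSF1A were added after their values were seen. The members and lists were chosen with earlier results of these data known. Where all arrays of the dimmer group were under 100, a fold is given as at least that with 100 in its place. Alternatives were median centring, quantile normalization, cyclic loess, no filter, an intensity above 200, 3 arrays above 100, the filter after the fit, a floor of 100, a mean-variance trend, the replicate number as a block and leaving out each array. matplotlib 3.10.9 under Python 3.11.15 drew the figures.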

Additional observations from a re-analysis of the deposited data

Results flagged for a closer look

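The courses of 2 member probe sets ran in opposite directions in the breeds on every array from GD15 to GD26, which is why they are listed here. The difference was not tested, because the genes were chosen for it. It was −2.01 (log2, Yorkshire step minus Meishan step) for TNFAIP1, which was above an intensity of 100 on 17 of the 18 arrays, and 4.85 for COMMD7 a, whose Yorkshire part lay almost wholly under 100 and which was 1.25 with intensities under 100 set to 100, where the Yorkshire days overlapped. Their shares among all probe sets are given with their values.

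Among the named genes of the pathway lists, the limma test of the breed difference itself in the GD26 minus GD15 step was passed above 0 by PAFAH2 (0.81). Below 0 were CHPT1 (−2.73), ATIC (−2.42), NFKBIA (−2.32), CEPT1 (−1.66), TNFRSF1B (−1.32), HPRT1 (−1.31), NT5C2 (−1.20), GMPS (−1.18), COMMD8 (−1.10), COMMD4 (−1.09), PCNA (−1.03), PLA2G12A (−0.93), COMMD3 (−0.82), PRPS2 (−0.73) and VPS29 (−0.71). In the GD50 minus GD26 step the test was passed by CHPT1 (2.16), NFKBIA (1.30) and CCDC93 (1.04). In the first step TNFRSF1B, COMMD8, COMMD4, COMMD3, VPS29, PLA2G12A and PRPS2 were not called after centring. PAFAH2 was called then, but not with the floor on low intensities. As deposited, 35.5% of all probe sets passed in the first step (8.7% above and 26.8% below 0) and 4.37% in the second.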

How the results depend on the processing

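The breed averages rest on the day values for which the genes were chosen, so their stability is no support for them. For PRTFDC1 the average was −0.65 as deposited, −0.40 on centred arrays, −0.40 with quantile normalization and −0.31 with cyclic loess. For COMMD7 b it was 0.11 as deposited, and 0.37, 0.35 and 0.44 on the same 3 scales. That of COMMD7 a was −0.62 after quantile normalization, −0.93 after cyclic loess and −0.82 with a floor of 100, against −1.44 as deposited. The cause was not tested. Without 1 array the averages ran from −1.04 to −0.97 for TNFAIP1, −1.66 to −1.29 for COMMD7 a, 0.02 to 0.19 for COMMD7 b, 0.36 to 0.47 for PLA2G7 and −0.77 to −0.46 for PRTFDC1. The counts of called probe sets ran from 5503 to 6145 of 5874 for the average, 2649 to 3999 of 3313 for the first step, and 231 (without the third Meishan replicate of GD26) to 570 of 407 for the second, with 245 and 240 without the first and the second Meishan replicate of GD50. No filter gave 8347, 4052 and 525. Of the calls, 80.1% were below 0 for the average and 75.5% for the first step as deposited, against 54.3% and 48.6% after centring.

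Uncalled differences changed sign for KCTD10 in the first step (0.0921 after centring, 0.0576 after quantile normalization, 0.179 after cyclic loess) and for PAFAH1B1 (0.124 and 0.0517 in the first step after centring and cyclic loess, 0.0163 and 0.0167 in the second after centring and quantile normalization, and −0.21 to 0.12 without 1 array). PAFAH2 was at 0.172 in the second step with a floor of 100.

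Residuals of same-numbered arrays of different groups correlated at −0.56 to 0.33 over 45 pairs (median 0.01). Those of arrays with different numbers correlated at −0.36 to 0.55 over 90 pairs (median −0.01). No strong effect shared by number was seen, but whether the numbers mark corresponding sites cannot be told from this. With the replicate block, 5811, 3196 and 379 probe sets were called for the average, the first and the second step. The block changed no call of a named pathway gene.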
